A study of Mus musculus with 2 samples.

Results

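The genes described here are the core of the circadian clock: Arntl (also called Bmal1) and Clock, the positive limb of its feedback loop; Per1, Per2, Per3, Cry1, Cry2, Nr1d1 and Nr1d2, the negative limb; and Dbp, a transcription factor driven by the loop. They were chosen by name, and all array probes whose RefSeq accession belongs to one of them were taken, which gave 11 probes for the 10 genes out of 55681 probes and 20660 named genes on the array. Each gene had 1 probe at 1 spot, except Dbp, which had 2 probes. The ovaries came from 2-week-old mice, whose strain is not given in the sources used here. They were cut lengthwise into symmetrical pieces, which the study did to limit errors from using different ovaries. Whether pieces of the same ovary went to both groups is not given in these sources. The pieces were cultured for 3 days on a membrane insert. TKR agonists were [Sar9, Met(O2)11]-SP for TACR1, GR-64349 for TACR2 and the substance P fragment analogue senktide for TACR3, and TKR antagonists were 1 selective blocker for each receptor, among them GR-94800 for TACR2 and SB218795 for TACR3, all at 1 μM (TKR, tachykinin receptor). The study's text has the antagonists acting together in their group; for the agonists this is less plainly stated, and how many ovaries went into each RNA is not given in the sources used here. One single-colour array was hybridised per group, so the data hold 1 array with TKR agonists and 1 with TKR antagonists. No spread between ovaries can be estimated from them and no test was made. Untreated ovaries were not analysed here, so the group that departs from the untreated state cannot be named.

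The clock is a transcriptional loop that runs in most cells of the body. The proteins BMAL1 and CLOCK bind together to E-box elements and switch on the Per and Cry genes, whose proteins then block BMAL1 and CLOCK. A connected loop runs through Nr1d1 and Nr1d2, which encode the nuclear receptors REV-ERBα and REV-ERBβ and repress Arntl at ROR elements, where the ROR receptors activate it. DBP and its relatives TEF and HLF act on D-box elements, where NFIL3 opposes them. In peripheral tissues Dbp, Nr1d1, Nr1d2 and Per3 usually peak at times of day when Arntl is low. Granulosa, theca and luteal cells of the ovary carry such clocks, and Per1 can also be induced outside the loop by cAMP, calcium and glucocorticoid signals. The hour at which the ovaries were collected is not given in the sources used here. With a single time point per group, the mean level of a cycling transcript and its phase cannot be told apart.

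The elements through which these genes act on each other can be read in their promoters. RefSeq windows of 300 bases on GRCm38.p6, from 250 bases before to 50 after a transcription start, were at hand for 9 of the 10 genes and 13 start sites. They were searched on both strands for the E-box CACGTG, the E-prime box CACGTT, the D-box TTATGTAA, the core TAGGTCA of the ROR element, the cAMP response element (CRE) TGACGTCA and its core TGACG, which lies within the CRE. The windows of 5 genes are shown as examples of each of the first 4 motifs, which are in capitals; Cry2, whose only match of these was an E-prime box, is described in words. Their places are chr7:113207261-113207560 (plus strand) for Arntl, chr11:69098699-69098998 (plus strand) for Per1, chr4:151044616-151044915 (minus strand) for Per3, chr10:85185005-85185304 (minus strand) for Cry1 and chr11:98775328-98775627 (minus strand) for Nr1d1.
Arntl, second start: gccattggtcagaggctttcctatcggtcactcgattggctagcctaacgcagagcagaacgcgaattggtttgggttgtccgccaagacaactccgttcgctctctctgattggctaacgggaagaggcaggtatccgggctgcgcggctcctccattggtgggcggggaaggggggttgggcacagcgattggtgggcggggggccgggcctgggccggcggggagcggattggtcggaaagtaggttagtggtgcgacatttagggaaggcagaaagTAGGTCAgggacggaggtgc
Per1, first start: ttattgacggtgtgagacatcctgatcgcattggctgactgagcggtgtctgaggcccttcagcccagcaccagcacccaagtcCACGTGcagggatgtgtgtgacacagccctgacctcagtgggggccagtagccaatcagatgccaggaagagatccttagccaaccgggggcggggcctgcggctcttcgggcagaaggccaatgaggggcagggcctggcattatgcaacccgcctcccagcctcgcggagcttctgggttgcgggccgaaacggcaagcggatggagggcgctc
Per3: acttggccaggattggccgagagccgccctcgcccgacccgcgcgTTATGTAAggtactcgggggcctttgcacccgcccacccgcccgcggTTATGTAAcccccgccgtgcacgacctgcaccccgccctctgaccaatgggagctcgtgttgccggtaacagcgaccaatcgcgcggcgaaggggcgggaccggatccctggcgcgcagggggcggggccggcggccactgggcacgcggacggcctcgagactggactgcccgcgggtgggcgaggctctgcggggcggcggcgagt
Cry1: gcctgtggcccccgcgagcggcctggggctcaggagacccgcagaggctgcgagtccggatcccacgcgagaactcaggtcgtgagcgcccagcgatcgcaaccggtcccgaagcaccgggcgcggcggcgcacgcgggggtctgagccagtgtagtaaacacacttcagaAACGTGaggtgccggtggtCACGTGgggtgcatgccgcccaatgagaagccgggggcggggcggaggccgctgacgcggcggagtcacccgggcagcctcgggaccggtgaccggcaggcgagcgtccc
Nr1d1: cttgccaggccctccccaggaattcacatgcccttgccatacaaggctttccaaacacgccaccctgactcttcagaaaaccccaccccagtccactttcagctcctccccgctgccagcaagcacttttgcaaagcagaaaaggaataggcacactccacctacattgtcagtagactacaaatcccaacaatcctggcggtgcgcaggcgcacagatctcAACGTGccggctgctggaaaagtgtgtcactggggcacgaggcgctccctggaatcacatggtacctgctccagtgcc

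With the start site counted as 0, Per1 had an E-box from position -166, and Cry1 had an E-box from -60 and an E-prime box from -79. Cry2 and Nr1d1 held an E-prime box from -166 and -28. The D-boxes of Per3 began at -205 and -158, and the ROR core of Arntl at 30, inside the transcribed part. The E-box was found in 2 of the 13 clock gene windows and in 7.15% of all 32851 windows of the table. For the E-prime box these were 3 of 13 and 4.68%, for the D-box 1 of 13 and 0.938%, and for the ROR core 1 of 13 and 2.61%. The whole CRE was in none of the 13 windows and in 1.79% of all windows. Its core was in 4 of the 13 windows, those of Per1, Cry1 and Cry2, and in 20.8% of all. Counted by gene, the core was in 3 of the 9 clock genes and in 3878 of 12123 measured genes with a window. The E-box was in 2 of the 9 and in 1334 of the 12123. Both start sites of Per1 had the CRE core, from -246 at the first and -132 at the second. The windows of Dbp, Nr1d2 and Clock held none of these letters, which says nothing of elements elsewhere in the genes. These matches describe the sequence, and no binding was measured.

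**Figure D1:**
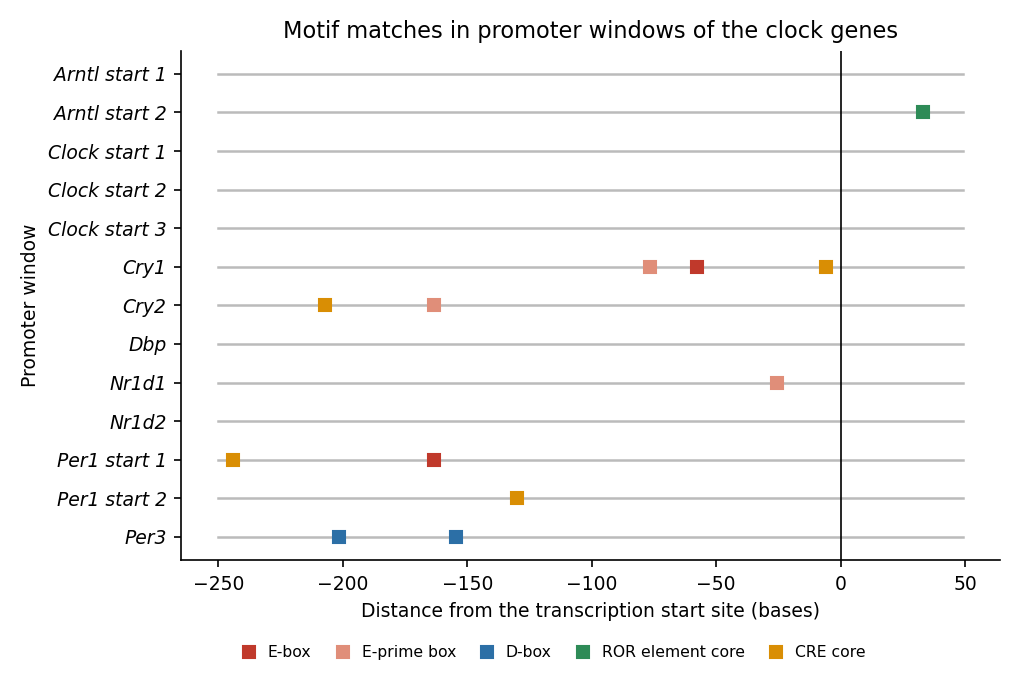
Motif matches in the promoter windows of the clock genes. The horizontal axis is the distance from the transcription start site in bases (line at 0), each grey line is 1 of 13 windows, and squares mark the middle of a match on either strand. Per3 carries 2 D-boxes, Cry1 an E-box and an E-prime box, and Per1 an E-box at its first start.

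Signals below are those of the image analysis software after its background correction, in signal units, and the error after each is the software's own estimate for that spot. For the ratio, signals were divided by the array's 75th percentile (672 with agonists, 569 with antagonists), and the log2 ratio sets agonists over antagonists. Leaving out control spots, 59305 remained per array, and the software marked 65.4% of them with agonists and 61.6% with antagonists as well above background and 0 as saturated. Named genes with such a mark on both arrays numbered 15258, and their log2 ratios had a median of -0.10 and an SD across genes of 0.48. A value of -0.10 is therefore the middle of the data on this scale. The error of the log2 ratio of a clock probe came to 0.20 to 0.24 by the software's estimate for the 10 probes measured on both arrays. Probes printed 10 times had a median SD between spots of 0.07, and the brightest pair of probes for a gene differed by a median of 0.14 over 3781 genes. These errors cover the spot and the probe and not the spread between ovaries. Levels of different genes are not compared, since each probe has its own brightness.

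Clock transcripts differed between the arrays in both directions. Per1 was 1.59-fold higher with TKR agonists and Dbp 1.94-fold lower, and the other 7 genes measured on both arrays lay between these. The log2 ratios of the 9 genes had a median of -0.27 and ran from -0.96 to 0.67, with an SD of 0.52, beside 0.48 for all genes. Of the 9, 6 (Clock, Per3, Cry2, Nr1d1, Nr1d2 and Dbp) were below 0, as were 62.3% of all genes, and the same 6 were below the median of all genes. Per1 was the only member at least 1.5-fold higher (1 of 9, beside 9.26% of all genes) and Dbp the only one at least 1.5-fold lower (1 of 9, beside 4.28%). None of the 9 reached 2-fold, which 4.01% of all genes did upward and 0.577% downward. Among the 8430 genes in the brighter range, with a mean signal that reached the 75th percentile, 5.3% passed 1.5-fold upward and 3.07% downward. By the SD, the clock genes were thus spread about as widely as all genes, though the SD of the brighter genes was 0.38. The quartiles of all genes were -0.27 and 0.15. Only Clock lay between these, with Nr1d1 and Cry1 just outside. The description turns on single members.

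**Figure D2:**
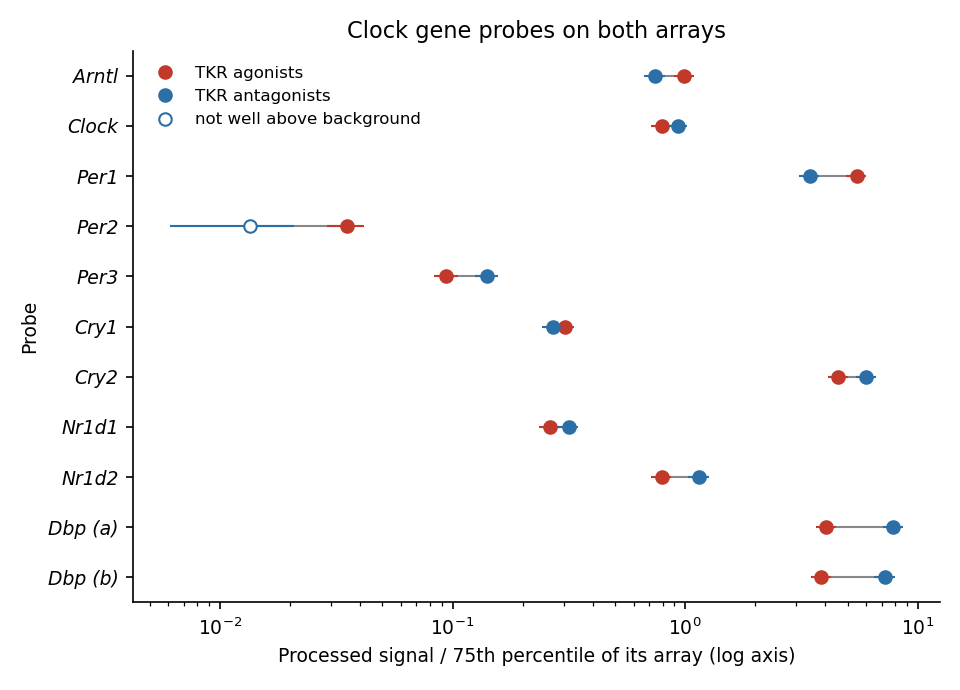
Signal of each clock gene probe on the 2 arrays. The horizontal axis (log scale) is the processed signal divided by the 75th percentile of its array, red points are TKR agonists, blue points TKR antagonists, bars the software's error of the spot, and the open point a spot not well above background; positions of different probes are not comparable. The agonist point lies to the right for Arntl, Per1, Per2 and Cry1 and to the left for the other probes, and both Dbp probes show the same separation.

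Arntl encodes BMAL1, the indispensable activator of the loop. Its probe (NM_007489) read 666 ± 66.8 with agonists and 422 ± 42.4 with antagonists. The transcript was 1.34-fold higher with agonists, a log2 ratio of 0.42 ± 0.20, or 0.51 above the median of all genes. Clock encodes the partner of BMAL1. Its probe (NM_007715) read 535 ± 53.6 and 527 ± 52.9, nearly the same signal on both arrays. After scaling, its log2 ratio was -0.22 ± 0.20, close to the middle of all genes, and it was 0.020 for unscaled signals and 0.051 after spike-in scaling. The 2 genes of the positive limb thus differed from each other by 0.64 ± 0.29 on the log2 scale, a difference that no scaling by a constant can move.

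Per1, a repressor and an immediate target of signals that reset the clock, had the highest ratio of the members measured on both arrays. Its signal (NM_011065) was 3669 ± 367 with agonists and 1948 ± 195 with antagonists. The log2 ratio was 0.67 ± 0.20, and of 33073 probes marked well above background in both groups 5.64% had one at least as high. Per1 stayed at least 1.5-fold higher under each of the 12 alternative ways of processing, with log2 ratios from 0.62 to 0.94.

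Per2, the paralogue most tightly bound to the loop, was barely detected. Its probe (NM_011066) read 23.7 ± 4.38 with agonists, which was well above background, and 7.63 ± 4.16 with antagonists, which was not. With the lowest signal well above background on the antagonist array, 19.9 units, in place of the dim value, Per2 was at least 1.01-fold higher with agonists. This bound is next to no difference, and the measured ratio, 1.40 on the log2 scale, had an error of 0.83 and turned to -0.012 with the normexp background correction. Per2 is left out of the counts and medians above and below.

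Per3 is counted here in the negative limb, though it is an output of the loop more than a part of it. It went the other way from Per1. Its probe (NM_011067) was dim but well above background on both arrays, at 63.3 ± 7.45 with agonists and 80.2 ± 9.08 with antagonists. The log2 ratio was -0.58 ± 0.24, a 1.497-fold lower level that falls just short of 1.5-fold. The ratios of Per1 and Per3 differed by 1.25 ± 0.31 on the log2 scale. The Period genes therefore did not share a direction.

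The cryptochromes, the strongest repressors of BMAL1 and CLOCK, also differed from each other. Cry1 (NM_007771) read 204 ± 20.8 with agonists and 153 ± 16.0 with antagonists, a log2 ratio of 0.17 ± 0.21. That ratio is within its error of 0, and it lay 0.26 above the median of all genes. Cry2 (NM_009963) read 3062 ± 306 and 3414 ± 341, a log2 ratio of -0.40 ± 0.20. The gap between them was 0.57 ± 0.29, with Cry1 above and Cry2 below the median of all genes.

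Both REV-ERB genes had lower scaled values with agonists. Nr1d1 (NM_145434) read 176 ± 18.1 with agonists and 179 ± 18.5 with antagonists, and its log2 ratio was -0.27 ± 0.21, which became 0.0047 with spike-in scaling. Nr1d2 (NM_011584) read 534 ± 53.5 and 653 ± 65.4, and its log2 ratio was -0.53 ± 0.20. The receptors differed from each other by 0.26 ± 0.29, which is within the error. Arntl, the gene they repress, lay above Nr1d2 by 0.95 ± 0.29 and above Nr1d1 by 0.69 ± 0.29.

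Dbp, a PAR bZIP factor that follows the activity of BMAL1 and CLOCK closely, had the lowest ratio. One of its probes (both NM_016974) read 2723 ± 272 with agonists and 4472 ± 447 with antagonists, and the other read 2593 ± 259 and 4117 ± 412. Both probes were lower with agonists, by log2 ratios of -0.96 ± 0.20 and -0.91 ± 0.20, and they differed by less than the median gap of 0.14 between probes of a gene. Ratios at least as low were found for 0.825% and 1.04% of the 33073 probes. Among the 13336 brighter ones, whose mean signal reached the 75th percentile, these shares were 0.292% and 0.36%. Dbp lay below Per1 by 1.63 ± 0.29 and below Arntl by 1.37 ± 0.29, and its log2 ratio stayed between -1.01 and -0.68 over the alternatives.

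**Figure D3:**
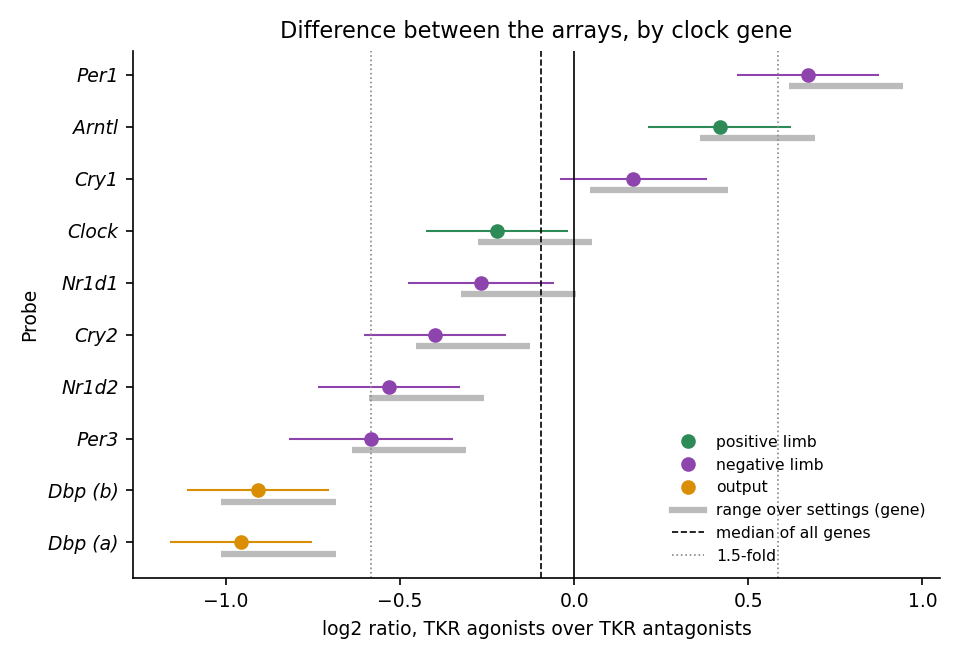
Log2 ratio of each clock gene probe measured on both arrays, TKR agonists over TKR antagonists. Points are the values with 75th percentile scaling, coloured by role, bars the software's error of the spots, grey bands the range of the gene's value over all ways of processing, the dashed line the median of all genes (-0.10) and dotted lines 1.5-fold. Per1 at 0.67 and both Dbp probes at -0.96 and -0.91 lie outside the dotted lines, and the grey bands of Clock and Nr1d1 reach past 0.

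Set side by side, the limbs overlapped. The positive limb had ratios of 0.42 and -0.22 with a median of 0.10, and the 6 measured genes of the negative limb ran from -0.58 (Per3) to 0.67 (Per1) with a median of -0.33. Both positive genes lie inside the range of the negative ones. The median of the negative limb was 0.43 lower than that of the positive limb, and between 0.37 and 0.43 lower over the alternatives. Scaling by a constant cannot move this gap, so those alternatives do not bear on it. The gap is smaller than that of 0.64 between Arntl and Clock. Of the 6 negative genes, Per1 and Cry1 were above 0 as scaled here, Cry1 within its error of 0. With spike-in controls Cry1 was at 0.44, and Nr1d1 also came above 0, at 0.0047. The members with the clearest differences were Per1 and Arntl on the higher side and Dbp, Per3 and Nr1d2 on the lower side.

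**Figure D4:**
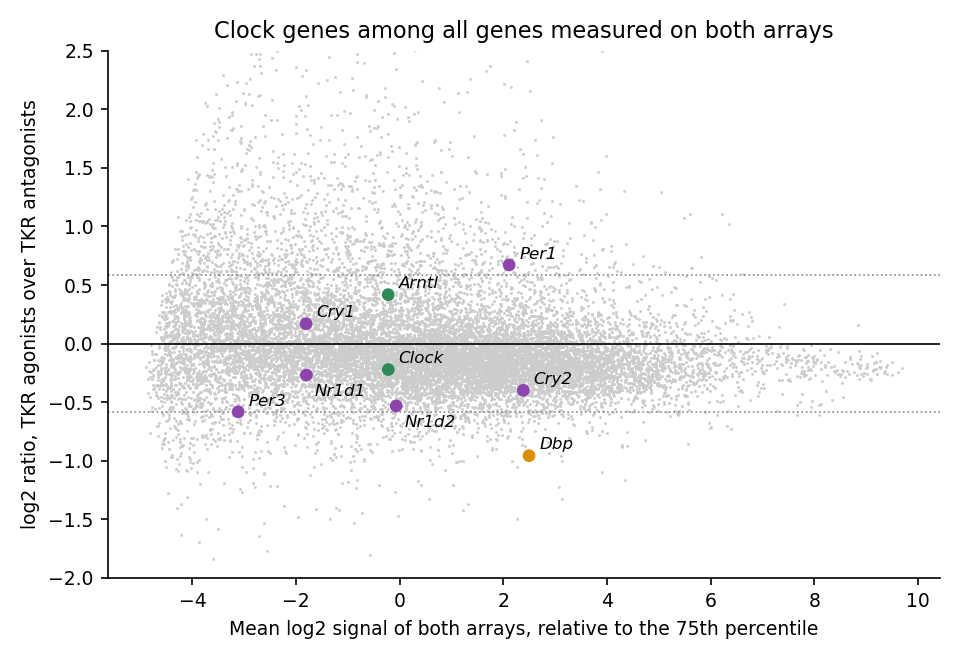
Clock genes among the 15258 named genes well above background on both arrays. The horizontal axis is the mean log2 signal of a gene on both arrays relative to the 75th percentile, the vertical axis its log2 ratio (agonists over antagonists), grey points are all genes (46 lie outside the axis), and coloured points are clock genes by role (green positive limb, purple negative limb, orange output). Per1 lies above and Dbp below most genes of like signal, and the other members lie within 1.5-fold.

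Genes that work around the core were grouped in lists by their known roles. In the family of Dbp, Tef was lower with agonists at 12195 signal units against 15480 with antagonists, a log2 ratio of -0.59 ± 0.20, and Hlf was 212 against 233, a log2 ratio of -0.38 ± 0.21. All 3 PAR bZIP genes were therefore below both 0 and the median of all genes, and they stayed below 0 under the 12 alternatives. Of the 5 other output genes (Tef, Hlf, Usp2, Wee1 and Nampt) 4 were below 0 (62.3% of all genes were), with a median of -0.38. Only Tef was at least 1.5-fold lower (4.28% of all genes), and it just passed, at 1.501-fold. Its log2 ratio ran from -0.64 to -0.31 over the alternatives. The count below 0 is thus near that of genes in general. Wee1, a kinase that holds cells before mitosis, had -0.57 ± 0.20, and Usp2, a deubiquitinase, had 0.25 ± 0.20.

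Of the other repressors of the loop, Ciart had a log2 ratio of -0.31 ± 0.21, Nfil3 -0.21 ± 0.20 and Bhlhe40 0.10 ± 0.20. None of these 4 genes, Bhlhe41 included, reached 1.5-fold, and their median was -0.06. Among the other activators, Npas2 and Arntl2, the paralogues of Clock and Arntl, were not well above background on either array. Rora, an activator of Arntl, had -0.12 ± 0.21. The probes of Rorb, its paralogue, gave -0.24 and 0.57, so this gene has no settled direction.

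The 13 modifiers of clock proteins, among them the casein kinases that phosphorylate PER and the F-box proteins that mark CRY for degradation, had a median of -0.21. Of these, 11 were below 0 as scaled here, beside 62.3% of all genes. When spike-in controls set the scale, 8 were above 0, and the median of all genes was 0.18. Prkaa2, a catalytic subunit of the AMP-activated kinase, was the only one at least 1.5-fold lower (1 of 13, beside 4.28% of all genes). It read 151 against 204 signal units, a log2 ratio of -0.67 ± 0.21. Csnk2a1, a catalytic subunit of casein kinase 2, had -0.57 ± 0.20, and Fbxl21, dim at 25.5 and 27.5 signal units, had -0.35 ± 0.37. The count below 0 uses the brightest probe of each gene. The probes of Gsk3b ran from -0.21 to 0.41 and those of Csnk1e from -0.09 to 0.06, so both genes have no settled direction.

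Genes known to act upstream of Per1 were also read. Sik1, a kinase induced by cAMP that limits this response, had a log2 ratio of 0.36 ± 0.21, Crtc3, a coactivator of CREB, -0.38 ± 0.20, and Nr3c1, the glucocorticoid receptor, -0.52 ± 0.20. The 8 genes of this list had a median of -0.15 and none reached 1.5-fold. The 5 listed targets of the glucocorticoid receptor were all above 0, under the 12 alternatives as well, with a median of 0.22, while 62.3% of all genes were below 0 as scaled here. Zbtb16, a zinc finger repressor, read 633 with agonists and 135 with antagonists and was 3.97-fold higher, a log2 ratio of 1.99 ± 0.21. Sgk1, a kinase, had 0.49 ± 0.20, and Tsc22d3, which encodes GILZ, had 0.22 ± 0.20, about the size of its error. Fkbp5 had 0.15 ± 0.20 and Klf9 0.16 ± 0.20, both within their errors of 0. Measured from the median of all genes, Tsc22d3 lay at 0.31, Klf9 at 0.26 and Fkbp5 at 0.25. Only Zbtb16 of the 5 was at least 1.5-fold higher, beside 9.26% of all genes. The list was chosen with earlier results of these data known. Whether glucocorticoid signals had a part in the Per1 value was not tested. The 12 reference genes, such as Actb and Gapdh, had a median of -0.12, next to that of all genes, and ran from -0.33 to 0.29 with none past 1.5-fold.

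**Figure D5:**
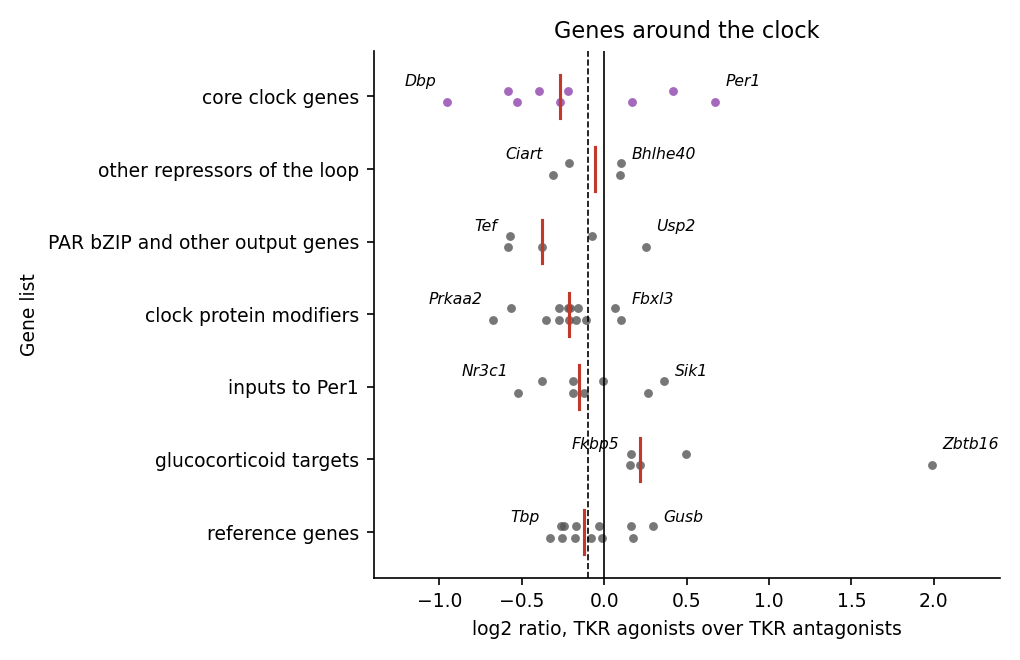
Genes around the clock, by list (the other activators are not plotted). The horizontal axis is the log2 ratio (agonists over antagonists), each point is a gene well above background on both arrays, red bars are list medians, the solid line is 0 and the dashed line the median of all genes (-0.10), and the lowest and highest gene of each list are named. The list of output genes has its median at -0.38. All 5 glucocorticoid targets lie above 0, Fkbp5 and Klf9 by less than their spot errors and Zbtb16 at 1.99.

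The arrays also differed in markers of the cells in the ovary, whose part in the clock values was not tested. All 12 granulosa and all 12 oocyte markers were well above background on both arrays, as the labelled tissue would have it. As scaled here, 62.3% of all genes were below 0. Of the granulosa markers 10 were below 0 and 2 above (median -0.47), and 5 of the 12 were above 0 for unscaled and spike-in scaled signals. Their summed signal, in units of the 75th percentile, was 899.8 with agonists and 1078 with antagonists, but most of it came from the probe of Kctd14 (516919 and 506549 signal units, log2 ratio -0.21), so it does not describe the 12 genes. The sums below are likewise weighted to the brightest probes, and the medians describe the lists. All 10 proliferation genes were below 0 (median -0.49, summed 45.1 and 65.5), while oocyte markers had a median of 0.17 and the same sum of 341 on both arrays. Higher with agonists were all 8 surface epithelium markers (median 1.01, summed 39.1 and 17.9), all 7 macrophage markers measured on both arrays (1.07, 16.3 and 11.3), all 5 of smooth muscle (0.81, 38.3 and 23.3), 6 of 7 of endothelium (0.88, 69.3 and 58.3) and 6 of 7 of stroma (0.41, 406.9 and 339). Theca markers were at -0.10, 2 above and 2 below 0, with Lhcgr not well above background. These counts use the brightest probe of each gene. The probes of Foxl2, Kctd14, Kdr, Star, Csf1r and Cdk1 lay on both sides of 0, those of Kdr from -0.27 to 0.38, so these genes have no settled direction. In such bulk RNA, fewer cells of a type and less RNA per cell cannot be told apart.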

How the data were processed

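Gene expression in cultured mouse ovaries was measured with 1 single-colour (Cy3) oligonucleotide array per group. The authors had the arrays read with Agilent Feature Extraction 10.10.1.1 and deposited linear spot intensity values, background-corrected and not scaled between arrays, with its error and its marks for outliers and for signal well above background. Their deposited summary intensities equal these signals times 1.99 for agonists and 2.19 for antagonists. Groups came from the sample labels, and the ligands from the study's methods. Control spots and outlier spots were left out, log2 signals were reduced by the 75th percentile of the array, and spots of a probe were averaged. More than 50% of a probe's spots had to carry the mark for it to count as well above background. Probe accessions were paired with symbols through RefSeq (GRCm38.p6, for names only, the array being designed on another assembly), which named 27235 of 55681 probes. The brightest probe stood for a gene. All 10 clock genes were named with values, and from each other pathway list the 3 genes with the largest absolute log2 ratio among those well above background on both arrays, except 1 gene that is not reported here. Usp2, Bhlhe41, Npas2, Arntl2, Gsk3b, Csnk1e, Lhcgr, Fkbp5, Klf9, Foxl2, Kctd14, Kdr, Star, Csf1r and Cdk1 were named after their values were seen. The members and lists were chosen with earlier results of these data known. With 1 array per group no test was made, and the number of arrays limits the precision. Alternatives covered scaling, background correction, spots, probes and filters. The summary steps were tested on simulated data. Python 3.11.15, numpy 2.4.6, pandas 2.3.3, matplotlib 3.10.9, R 4.3.3 and limma 3.58.1 were used. Insl3 and Cd68, among the marker lists, had no probe named here. Sequences are those of RefSeq, matched by symbol; 9 of the 10 genes were matched, and Per2 was not analysed here for motifs.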

Additional observations from a re-analysis of the deposited data

How the results depend on the processing

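No paired analysis was possible because each group has 1 array and no value comes from a test. Scaling was the choice that mattered most, since it shifts all genes alike: the median of all genes was -0.10 as reported, 0.15 for unscaled signals and 0.18 after spike-in scaling, where 15.5% and 16.6% of genes were at least 1.5-fold higher and 1.29% and 1.14% lower. For unscaled and spike-in scaled signals, the median of the clock genes became -0.026 and 0.0047, that of the negative limb -0.092 and -0.061, that of the positive limb 0.34 and 0.37, and the log2 ratio of Clock 0.020 and 0.051; Nr1d1 became 0.0047 with spike-in controls. Relative to all genes the clock median stayed between -0.25 and -0.15, a difference that no scaling by a constant can move. In both settings 2 clock genes, Per1 and Arntl, were at least 1.5-fold higher in place of 1, and 2 were when Per2 was counted despite its dim signal. The number at least 1.5-fold lower was 2 with quantile normalization and 3 with scaling on the median, in place of 1. At a 2-fold threshold both counts were 0. Per2 had a log2 ratio of -0.012 with the normexp background correction, whose offset of 50 is above both of its signals. Of 120 values of single genes under the alternatives, 101 moved by less than the error of the spot, 15 by more with the same sign and 4 changed sign. Signal over background limits Per2, and Per3 less so.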
